A study of Mus musculus with 8 samples.

Results

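AP-1 is a family of transcription factors that bind DNA as pairs through a basic region and a leucine zipper. Proteins of the Fos, Jun, ATF, BATF and Maf groups pair with one another, and the make-up of the pair sets which sites are bound and whether a gene is switched on or held down. In T cells, antigen receptor and costimulatory signals raise *Fos* and *Jun* within minutes, and AP-1 then works beside NFAT on cytokine and activation genes, while BATF and its partners are known for a role in effector Tregs. A list of 10 genes of the family was fixed with earlier results of these data known, *Fos*, *Fosb*, *Fosl2*, *Jun*, *Junb*, *Jund*, *Atf3*, *Batf3*, *Mafk* and *Mafg*. Of these, 9 were among the 20172 genes measured and all 9 passed the filter on low values that left 13990 genes for testing. *Batf3* was not analysed here.

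The cells were Tregs of female *Foxp3* CreYFP mice (genotype given as Foxp3 YFP-cre, with the reporter and Cre driven by the *Foxp3* locus), and the study used animals of 8 to 12 weeks. YFP+ CD4 T cells from spleen were separated by surface TNFR2, the receptor for TNF encoded by *Tnfrsf1b*, into TNFR2+ and TNFR2- Tregs, and RNA was sequenced from 4 libraries of each. The labels give no treatment for either group. The number of libraries in a group is also the number of replicates given beside the mice whose spleens were sorted, but it is not said whether cells of several mice were pooled, or whether both populations of a replicate number came from the same mouse. The p values measure the spread between these libraries, which may be technical in part.

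*Tnfrsf1b* had 3148, 1840, 2631 and 2383 normalized counts in TNFR2+ Tregs and 1266, 1563, 1177 and 1277 in TNFR2- Tregs (log2 fold change 0.90 by limma, adjusted p = 0.00449), so the libraries followed the gate. Its call held in all 8 fits that left out a library. It also held in 8 of the 9 alternatives that kept all libraries (adjusted p up to 0.0574 by limma). A normalized count is the authors' read count scaled between libraries, a log2 fold change is TNFR2+ over TNFR2-, and adjusted p values come from limma over all genes tested with a threshold of 0.05. All 10 markers of Tregs and T cells that were checked were present in every library, with *Foxp3* at 2810 to 3310 normalized counts in TNFR2+ and 3290 to 4030 in TNFR2- Tregs. The markers went in both directions. *Il2ra* was lower in TNFR2+ Tregs (2560 to 3070 against 3220 to 3990). *Ctla4* (3970 to 5030 against 1990 to 2830), *Ikzf2*, *Ikzf4*, *Tnfrsf18* and *Cd3e* were higher without overlap. The ranges of *Foxp3*, *Cd4*, *Cd3g* and *Cd5* overlapped. The 10 summed to 34600 to 39700 in TNFR2+ and 25900 to 32000 in TNFR2- Tregs. Estimated depth was 9615000 to 12110000 reads in TNFR2+ and 9100000 to 10980000 reads in TNFR2- Tregs, so the ranges overlapped. TNFR2- replicate 3 stood apart on the second principal component, at 91.32 against -39.08 to 17.96 for the other 7 libraries. Without it the log2 fold changes of the AP-1 genes described below were -1.22 for *Jun*, -0.60 for *Fos*, -0.49 for *Jund*, -0.19 for *Junb*, -0.28 for *Fosb*, -0.42 for *Mafk*, 0.26 for *Fosl2*, 0.18 for *Atf3* and 0.56 for *Mafg*. Of the 3 calls among them, that of *Jund* was lost (adjusted p = 0.0725 by limma).

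The 250 bases before the start of 3 genes are shown (RefSeq, build GRCm38.p6), because *Jun* and *Fos* carried the largest called differences of the listed genes and each window held a match to 1 of the elements searched. For *Fos*, chr12:85473640-85473889 on the plus strand, the capitals mark a TATA element. For *Jun*, chr4:95052223-95052472 on the minus strand, the capitals mark TGACATCA, an AP-1-like element. For *Maff*, a small Maf gene outside the list that also fell, the window is chr15:79347270-79347519 on the plus strand, before one of its annotated starts, and the capitals mark TGACGTCA, the cyclic AMP response element.
Fos: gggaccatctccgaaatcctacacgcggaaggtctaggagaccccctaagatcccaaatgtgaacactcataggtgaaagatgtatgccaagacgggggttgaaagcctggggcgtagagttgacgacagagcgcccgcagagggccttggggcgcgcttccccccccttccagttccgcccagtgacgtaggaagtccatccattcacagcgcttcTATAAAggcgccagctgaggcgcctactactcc
Jun: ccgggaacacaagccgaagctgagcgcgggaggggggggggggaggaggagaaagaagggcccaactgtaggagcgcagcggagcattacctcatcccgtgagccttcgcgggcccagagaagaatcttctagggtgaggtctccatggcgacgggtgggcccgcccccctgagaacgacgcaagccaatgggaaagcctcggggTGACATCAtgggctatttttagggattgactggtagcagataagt
Maff: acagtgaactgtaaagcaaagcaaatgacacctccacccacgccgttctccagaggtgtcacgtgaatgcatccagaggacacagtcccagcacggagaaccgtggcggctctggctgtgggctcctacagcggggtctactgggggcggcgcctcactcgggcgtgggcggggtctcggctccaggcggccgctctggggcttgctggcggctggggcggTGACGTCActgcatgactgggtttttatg

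In these windows the *Jun* element lay 45 to 38 bases, the *Maff* element 29 to 22 bases and the *Fos* TATA element 33 to 28 bases before the start. TGACATCA was present in 2.93% of all 32851 promoter windows of that length, on either strand, TGACGTCA in 1.55%, TATAAA in 12.4%, the AP-1 element TGACTCA in 4.46% and the CArG box of serum response factor in 1.47%. Among the 10 windows of the listed genes, 1 held TGACATCA, 1 held TATAAA, and TGACTCA, TGACGTCA and the CArG box were each in 0 of them, which says only that these letters are not in the 250 bases searched.

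Expression of the listed AP-1 genes was lower in TNFR2+ than in TNFR2- Tregs where it passed the test. *Jun* (build GRCm38, chr4, 95049034 to 95052222), *Fos* (chr12, 85473890 to 85477273) and *Jund* (chr8, 70698949 to 70700616) fell. None of the 9 rose past the threshold, and *Junb*, *Fosb*, *Fosl2*, *Atf3*, *Mafk* and *Mafg* did not pass the test. This does not hold for AP-1 as a whole, since *Batf* and *Maf*, outside the list, were called higher (described below). Thus 3 of 9 genes were lower at an adjusted p under 0.05 from limma, against 3.39% of all genes tested, and 0 of 9 were higher (0 also at an unadjusted p under 0.05), against 4.52% of all genes tested. The list was chosen with earlier results of these data known, so these counts describe the listed genes and do not test the family. The median log2 fold change of the 9 genes was -0.41, beside -0.01 for all genes tested. The groups did not overlap in 3 of the 9, *Fos*, *Jun* and *Jund*, against 15.4% of all genes tested. In these bulk samples, fewer cells that express a gene and less of its RNA per cell cannot be told apart.

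**Figure D1:**
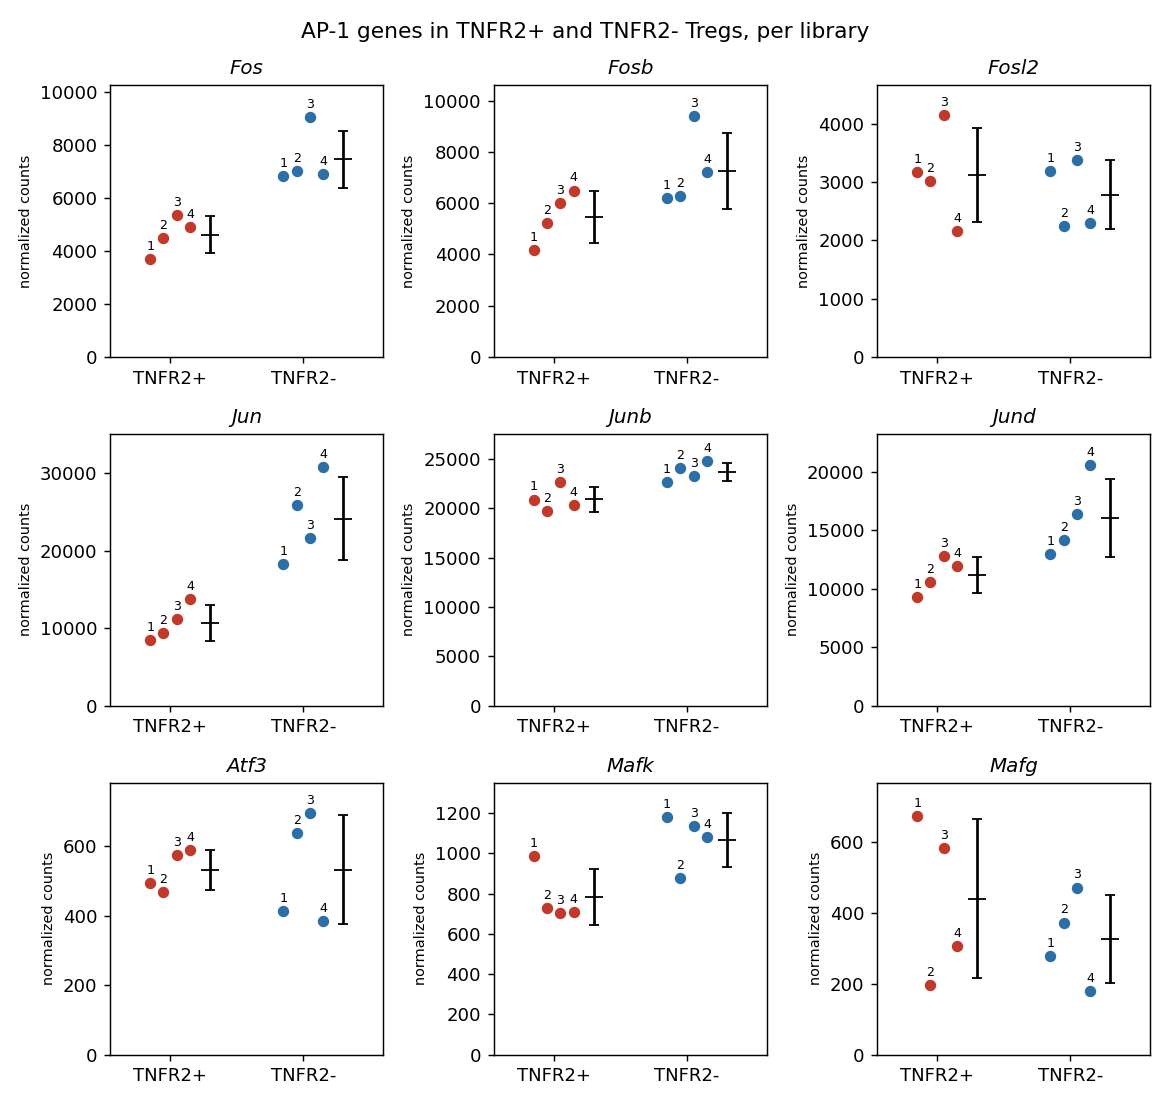
Normalized counts of the 9 AP-1 genes in each library, with the replicate number above each point and the mean ± SD (n = 4) in black beside it. Every TNFR2+ library lies below every TNFR2- library for *Fos*, *Jun* and *Jund*, and the groups overlap for the other 6 genes.

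*Jun* encodes c-Jun, the partner that gives Fos proteins their strongest DNA binding. It had 8438, 9406, 11211 and 13779 normalized counts in replicates 1 to 4 of the TNFR2+ Tregs, and 18337, 25851, 21651 and 30793 in those of the TNFR2- Tregs. The highest TNFR2+ library was thus below the lowest TNFR2- library, and the mean was 2.26-fold higher in TNFR2- Tregs. On the log2 scale *Jun* differed by -1.17 with a standard error of 0.17 (adjusted p = 0.00119), and the fits that dropped a library gave values from -1.302 to -1.05. *Jun* passed the threshold in all 8 of those fits and under each of the 9 alternatives that kept all libraries (adjusted p up to 0.0408).

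*Fos* encodes c-Fos, the immediate early partner of Jun proteins. Its normalized counts were 3699, 4510, 5363 and 4928 in TNFR2+ Tregs and 6847, 7045, 9078 and 6904 in TNFR2- Tregs, so the groups again stood clear of each other. The means were 4625 ± 709 and 7468 ± 1076 (SD, n = 4), or a difference of -0.69 on the log2 scale with a standard error of 0.13 (adjusted p = 0.00663). It passed in all 8 fits that left out a library (log2 fold change -0.77 to -0.59). It did not pass when variances were moderated without an intensity trend (adjusted p = 0.0834).

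*Jund* encodes JunD, the Jun protein that resting cells already hold. Counts were 9334, 10592, 12848 and 11918 in TNFR2+ Tregs and 13005, 14189, 16375 and 20589 in TNFR2- Tregs, where the lowest TNFR2- library lay just above the highest TNFR2+ library. *Jund* was thus at -0.51 on the log2 scale, with a standard error of 0.14 (adjusted p = 0.0459). This call was lost in 7 of the 8 fits that left out a library, all but the one without TNFR2- replicate 1 (adjusted p 0.0520 to 0.129 in those 7), under equal library sums (adjusted p = 0.107) and without an intensity trend (adjusted p = 0.196), while the direction held in each.

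*Junb*, the Jun protein most often described in Tregs and in BATF pairs, varied least between libraries. It had 20899, 19779, 22704 and 20296 normalized counts in TNFR2+ Tregs and 22640, 24050, 23296 and 24797 in TNFR2- Tregs. Replicate 3 of the TNFR2+ Tregs lay just above replicate 1 of the TNFR2- Tregs, and the log2 fold change of -0.18 (95% interval -0.36 to 0.00, adjusted p = 0.218) did not pass. *Junb* lies on chr8 (84974484 to 84978718) and overlaps *Prdx2* on the other strand, which had 346 ± 7.92 and 163 ± 46.1 normalized counts (SD, n = 4) and rose in TNFR2+ Tregs (log2 fold change 1.13, adjusted p = 0.0120). Whether reads of the pair were assigned by strand is not given in the sources used here.

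*Fosb*, a close relative of *Fos*, had 4183, 5207, 6018 and 6492 normalized counts in TNFR2+ Tregs and 6187, 6262, 9384 and 7209 in TNFR2- Tregs. The 2 lowest TNFR2- libraries lay below the highest TNFR2+ library, and the log2 fold change of -0.41 (95% interval -0.75 to -0.06, adjusted p = 0.143) did not pass. *Fosl2* encodes Fra-2, a Fos-related protein of later kinetics. Its counts were 3168, 3018, 4143 and 2166 in TNFR2+ Tregs and 3189, 2248, 3385 and 2299 in TNFR2- Tregs, fully interleaved, with a log2 fold change of 0.16 (95% interval -0.26 to 0.57, adjusted p = 0.685).

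*Atf3*, a stress-induced member that often represses, had 494, 468, 574 and 588 normalized counts in TNFR2+ Tregs and 412, 637, 695 and 383 in TNFR2- Tregs. The means were 531 ± 58.7 and 532 ± 157 (SD, n = 4), and the log2 fold change was 0.04 (95% interval -0.42 to 0.50, adjusted p = 0.944). *Mafk* and *Mafg* encode small Maf proteins, which bind DNA but have no activation domain of their own. *Mafk* had 988, 728, 704 and 709 normalized counts in TNFR2+ Tregs and 1178, 876, 1134 and 1079 in TNFR2- Tregs, with overlap through a single TNFR2+ library and a log2 fold change of -0.45 (95% interval -0.80 to -0.11, adjusted p = 0.105). *Mafg* was the most variable of the 9, from 197 to 673 in TNFR2+ Tregs and from 181 to 471 in TNFR2- Tregs, with a log2 fold change of 0.36 (95% interval -0.46 to 1.18, adjusted p = 0.630).

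**Figure D2:**
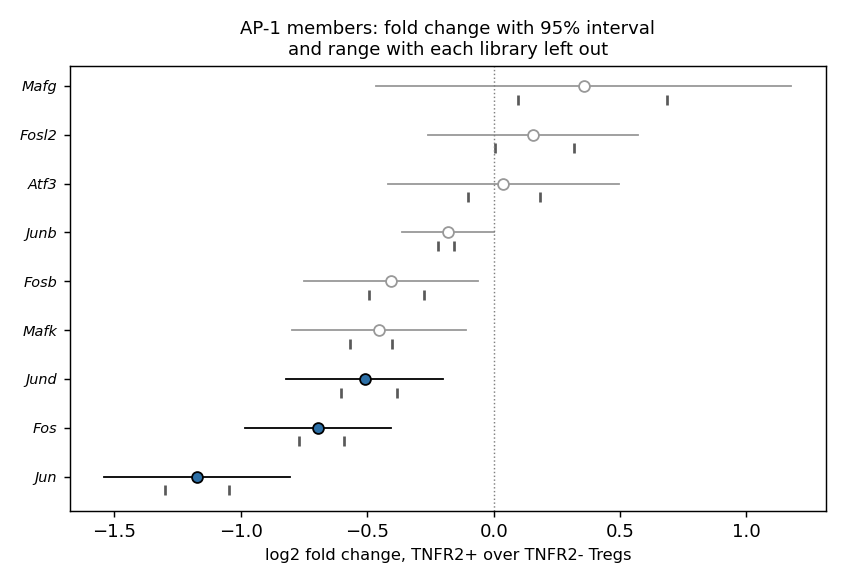
Log2 fold change of each AP-1 gene, TNFR2+ over TNFR2- Tregs, on log2(normalized count + 1), with its 95% interval as a line and the lowest and highest value with 1 library left out as ticks below it. Filled points passed an adjusted p of 0.05 and are *Jun* (-1.17), *Fos* (-0.69) and *Jund* (-0.51).

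Counting error was smaller than the spread between libraries. Estimated reads per library were lowest for *Mafg*, at 172, and even there counting error alone came to 7.63% of the value. For *Jun* it was at most 1.09%, beside a coefficient of variation between libraries of 21.9% in TNFR2+ and 22.3% in TNFR2- Tregs. *Junb* varied by 6.09% and 3.94%, and *Mafg* by 51.0% and 38.3%. A search of the annotated transcripts found 0 near-identical copies of any of the 10 genes, at 95% identity over 50% of a transcript.

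Per kilobase of annotated exon the Jun genes made up most of the level of the 9 listed genes. The mean level was 9091 ± 554 normalized counts per kilobase for *Junb* in TNFR2+ Tregs, followed by 6698 ± 921 for *Jund*, 3358 ± 736 for *Jun*, 1967 ± 301 for *Fos* and 877 ± 162 for *Fosb* (SD, n = 4). In TNFR2- Tregs the same order held, at 10298 ± 406, 9616 ± 2002, 7575 ± 1689, 3175 ± 458 and 1163 ± 239. *Fosl2*, *Atf3*, *Mafk* and *Mafg* followed at 323 ± 83.7, 246 ± 27.2, 201 ± 35.3 and 78.4 ± 40.0 in TNFR2+ Tregs, and at 287 ± 61.0, 247 ± 73.0, 273 ± 34.2 and 58.0 ± 22.2 in TNFR2- Tregs. The ranges over libraries of *Junb*, *Jund*, *Jun*, *Fos* and *Fosb* did not overlap from one gene to the next in TNFR2+ Tregs. In TNFR2- Tregs *Jund* overlapped both *Junb* and *Jun*. The ranges of *Fosl2*, *Atf3* and *Mafk* overlapped in both groups. Exon lengths count every annotated transcript, so levels of genes with long alternative ends, such as *Fosl2* and *Fosb*, are low estimates on this scale.

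The summed level of the 9 genes was 20497, 21398, 25308 and 24154 normalized counts per kilobase in TNFR2+ Tregs and 28160, 31882, 33141 and 37591 in TNFR2- Tregs, without overlap. *Jun* took 14.6% ± 2.22 of that sum in TNFR2+ and 23.0% ± 2.95 in TNFR2- Tregs (SD, n = 4), *Junb* took 40.0% ± 3.25 and 31.7% ± 2.72, and *Jund* took 29.2% ± 1.35 and 29.2% ± 2.71. *Fos* held 8.58% ± 0.623 and 9.80% ± 1.62. Every TNFR2- library thus had a larger share of *Jun* and a smaller share of *Junb* than every TNFR2+ library, since no TNFR2+ library exceeded 17.9% for *Jun* or fell under 36.5% for *Junb*. A share depends on the other genes in the sum. The level of *Junb* itself was not higher in TNFR2+ Tregs (log2 fold change -0.18, adjusted p = 0.218 by limma).

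**Figure D3:**
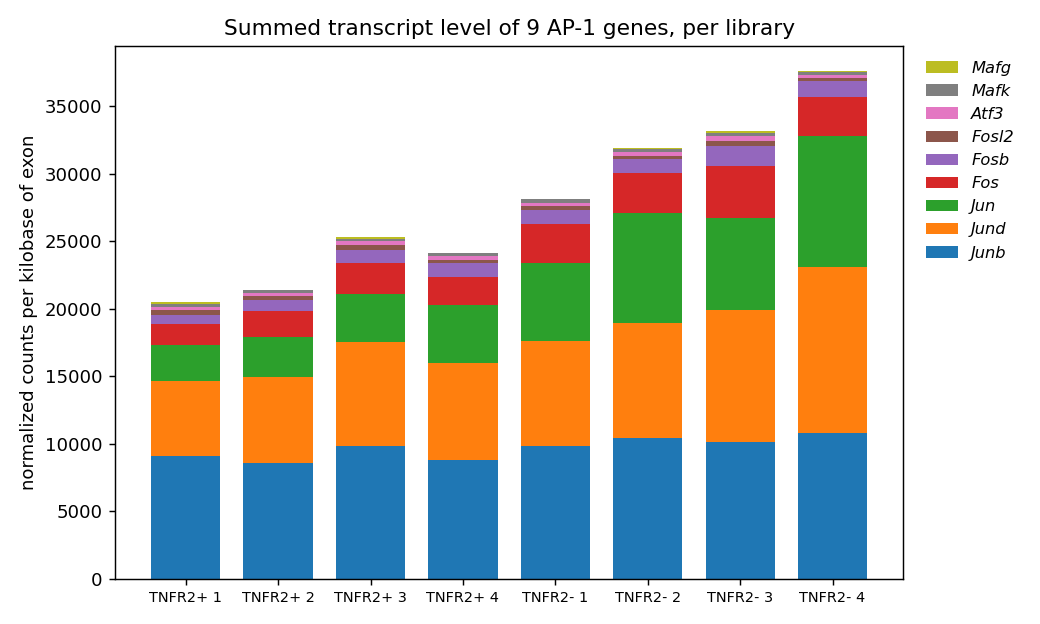
Stacked normalized counts per kilobase of exon of the 9 AP-1 genes in each of the 8 libraries. The bars of TNFR2- Tregs are taller, from 28160 to 37591 against 20497 to 25308, and the *Jun* segment grows more than the *Junb* segment.

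Within each library, 4 ratios between AP-1 genes are given as a description, without p values, because the pairs were chosen after the values were seen. The log2 ratio of *Jun* to *Junb* averaged -0.99 ± 0.31 for TNFR2+ and 0.00 ± 0.27 for TNFR2- Tregs (SD, n = 4). The ratio of *Jun* to *Jund* was -0.08 ± 0.19 and 0.59 ± 0.20, and that of *Fos* to *Fosb* -0.24 ± 0.11 and 0.05 ± 0.12. In these 3 ratios the groups did not overlap. *Jun*, already lower in TNFR2+ Tregs, is in 2 of them, and the share of all gene pairs without overlap was not computed. *Jun* relative to *Fos* was 1.20 ± 0.20 and 1.68 ± 0.41, with overlap between the groups.

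**Figure D4:**
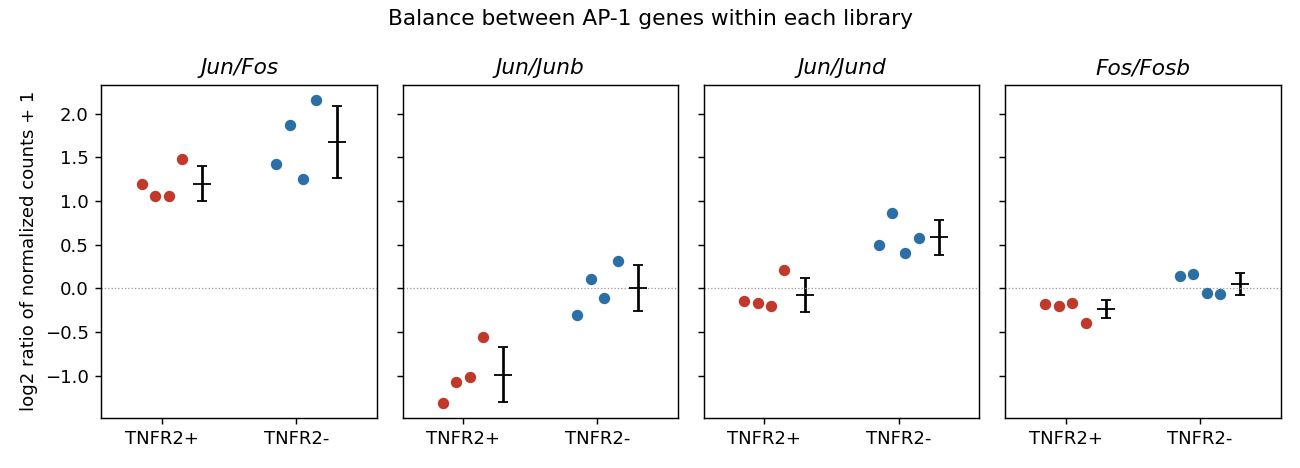
Log2 ratio between a pair of AP-1 genes in each library (points), with mean ± SD (n = 4) in black. The groups do not overlap for *Jun* to *Junb*, *Jun* to *Jund* and *Fos* to *Fosb*, and overlap for *Jun* to *Fos*.

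Around the group means, *Fos* and *Fosb* moved together from library to library, with a Pearson r of 0.92 over the 8 libraries on group-centred log2 values, and so did *Jun* and *Jund* at 0.79. *Fos* and *Jun* were at 0.30, and *Jun* and *Fosl2* at -0.63. Over the 7 libraries without TNFR2- replicate 3, these values were 0.87 for *Fos* and *Fosb*, 0.82 for *Jun* and *Jund*, 0.56 for *Fos* and *Jun* and -0.62 for *Jun* and *Fosl2*. The points share library and depth and no p is given. Of 10245 genes with a mean of at least 50, those most like *Fos* by this measure were *Stx18* at 0.97, *Clpx* at 0.96, *Eif2d* at 0.95, *Sh3bp5l* at 0.95 and *Chm* at 0.95, and *Fosb* ranked 17. Without TNFR2- replicate 3 the 5 ranked between 19 and 45, at 0.93 to 0.95, and *Fosb* ranked 144, so the order rests on that library.

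Other genes of the bZIP class, which supply partners and rivals of Fos and Jun, went in both directions. Of 21 listed, 16 were tested, and 2 were higher and 2 lower past the threshold (25.0% called, against 7.91% of all genes tested), with a median log2 fold change of -0.12. That median changed sign without TNFR2- replicate 4, to 0.12, and was 0.01 under equal library sums. The list was written by hand with earlier results of these data known. The higher genes were *Batf* and *Maf*, both known in effector T cells, and the lower ones were *Bach2*, a repressor that competes for AP-1 sites and is known for keeping Tregs in a resting state, and *Maff*, a small Maf.

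*Batf* had 532, 534, 547 and 384 normalized counts in TNFR2+ Tregs and 237, 188, 260 and 138 in TNFR2- Tregs, with no overlap. The mean was 2.43-fold higher in TNFR2+ Tregs (standard error of the log2 value 0.23, adjusted p = 0.00411), and *Batf* passed in all 8 fits that left out a library. *Maf* (c-Maf) had 3616, 2653, 3616 and 2059 and then 1845, 1026, 2446 and 1002, with TNFR2- replicate 3 inside the range of the TNFR2+ libraries. *Maf* differed by 0.99 on the log2 scale (adjusted p = 0.0431). That call was lost in 6 of the 8 fits, all but those without TNFR2+ replicate 4 or TNFR2- replicate 3 (adjusted p up to 0.131), and without TNFR2- replicate 3 it stood at 1.23 (adjusted p = 0.00739). It was also lost without an intensity trend (adjusted p = 0.164).

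*Bach2* had 953, 949, 1250 and 787 normalized counts in TNFR2+ Tregs and 2477, 2694, 1272 and 1579 in TNFR2- Tregs, apart by a narrow margin. *Bach2* was at -0.98 on the log2 scale (adjusted p = 0.0188), and the call was lost without TNFR2+ replicate 2 or 4 or TNFR2- replicate 1 or 2 (adjusted p 0.0520 to 0.0635) and without an intensity trend (adjusted p = 0.107). *Maff* had 452, 459, 709 and 552 against 1035, 917, 962 and 1041, a clear separation, at -0.89 on the log2 scale (adjusted p = 0.00594), with a call in all 8 fits. The remaining 12 did not pass, among them *Jdp2*, a repressor of AP-1, at 2.06 with 95% interval 0.29 to 3.84 (adjusted p = 0.150), and *Fosl1* (Fra-1), which had at most 30.2 normalized counts in any library.

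Immediate early genes as a class also respond to tissue disruption and cell sorting, so the others of that class were read beside *Fos* and *Jun*. The methods describe gentle sorting with cells kept on ice, and a different sorter at higher pressure for some experiments, without saying which was used for the sequenced cells. Of 29 other immediate early genes tested, 7 were lower and 2 higher in TNFR2+ Tregs past the threshold (31.0% called, against 7.91% of all genes), and the median was -0.11. *Egr1*, a zinc finger factor induced with *Fos*, had 1087, 1043, 920 and 1126 normalized counts in TNFR2+ Tregs and 2186, 1910, 2705 and 2283 in TNFR2- Tregs, and fell by 1.11 on the log2 scale (adjusted p = 4.94e-04). *Nr4a1*, an orphan nuclear receptor raised by antigen receptor signals, was at -0.98 (adjusted p = 5.87e-04) and *Ppp1r15a*, a stress-induced phosphatase subunit, at -0.71 (adjusted p = 9.75e-04). The others that fell were *Dusp2* (-0.57), *Btg2* (-0.54), *Zfp36* (-0.52) and *Ier2* (-0.46). These 4 were the less stable, since *Btg2* was lost without TNFR2+ replicate 2 (adjusted p = 0.0533) and the fits that dropped a library kept *Dusp2* and *Zfp36* in 2 of 8 and *Ier2* in 1 of 8 (adjusted p up to 0.127). *Dusp2* stayed without TNFR2- replicate 3 or 4, *Zfp36* without TNFR2+ replicate 2 or TNFR2- replicate 4, and *Ier2* without TNFR2- replicate 3. All 4 were lost without an intensity trend (adjusted p 0.0872 to 0.151) and under equal library sums (0.0512 to 0.153), and *Ier2* also with no filter on low values (0.0570) and with a replicate block (0.0527).

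Not all of this class fell. *Nr4a2*, a close relative of *Nr4a1*, had 2761, 3808, 2834 and 2785 normalized counts in TNFR2+ Tregs and 1364, 1533, 1066 and 586 in TNFR2- Tregs. It rose by 1.50 on the log2 scale (adjusted p = 0.00253), the opposite way to *Nr4a1*, and *Gadd45b*, a stress and NF-kB response gene, rose by 0.68 (adjusted p = 0.0362), a call kept only in the fits without TNFR2+ replicate 4 or TNFR2- replicate 3 (adjusted p up to 0.111 in the other 6) and lost without an intensity trend (adjusted p = 0.141). *Dusp1*, which switches off MAP kinases, stood at 0.37 with 95% interval 0.09 to 0.65 (adjusted p = 0.108), *Nr4a3* at -0.01 (-0.25 to 0.23) and *Ier5*, *Sik1*, *Pim1* and *Per1* between -0.05 and 0.06. These were picked among those that did not pass. At an unadjusted p under 0.05 from limma, 12 of the 29 were lower and 6 higher, beside 1495 lower and 1716 higher of all 13990 genes tested.

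**Figure D5:**
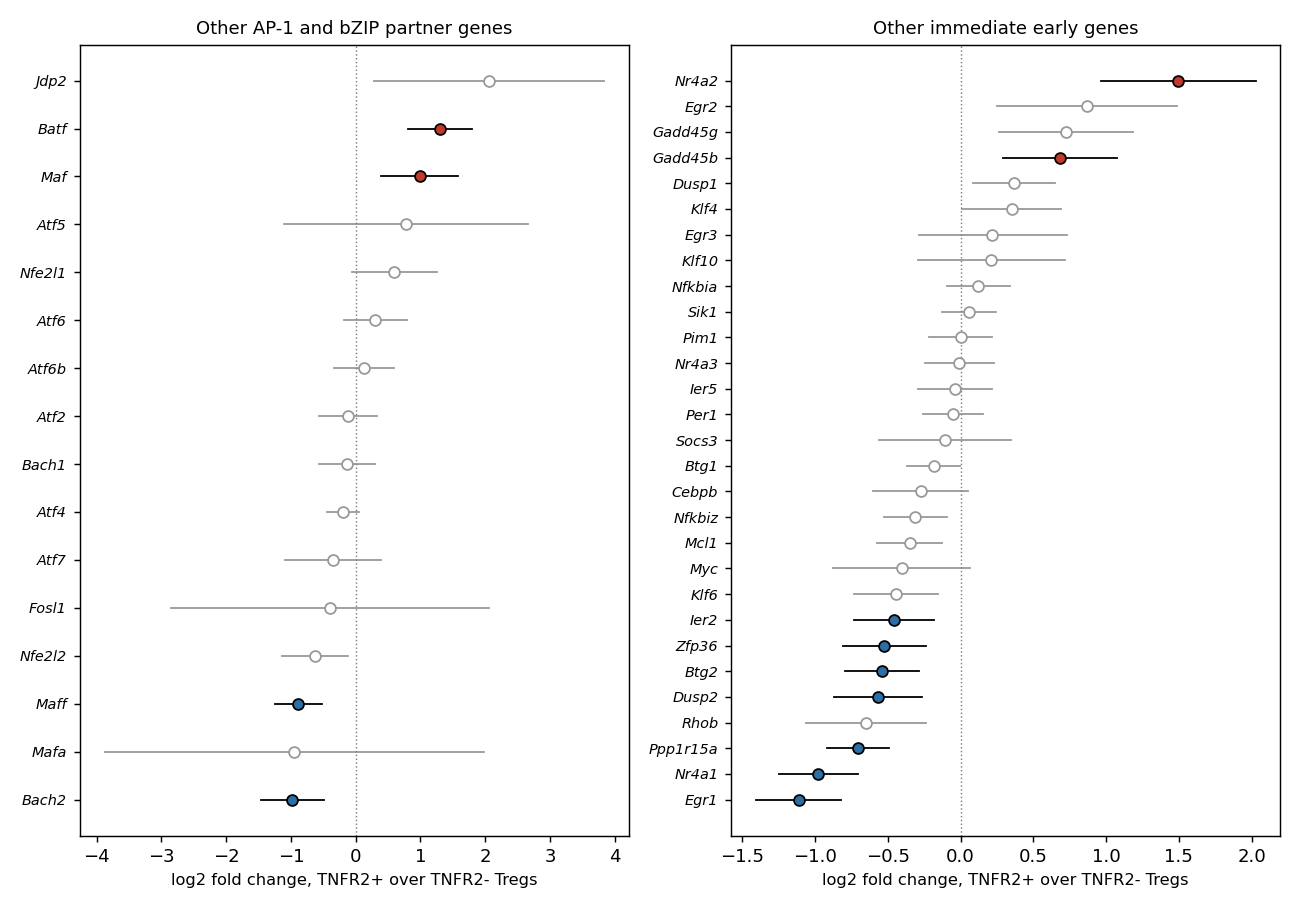
Log2 fold change, TNFR2+ over TNFR2- Tregs, with 95% interval, for the 16 other bZIP genes tested (left) and the 29 other immediate early genes tested (right). Red points were called higher and blue points lower at an adjusted p under 0.05, and white points did not pass. Both panels hold genes called in each direction.

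Heat shock genes that rise with dissociation stress were read in the same way. Of 16 tested, 2 were higher and 1 was lower past the threshold (18.8% called, against 7.91% of all genes), and their median was -0.11. *Hspa1b*, an inducible HSP70 gene with a closely related neighbour, *Hspa1a*, was at -0.67 (adjusted p = 0.0215), whereas *Bag3*, an HSP70 co-chaperone, rose by 0.84 (adjusted p = 0.00493) and *Hspd1*, the mitochondrial HSP60, by 0.64 (adjusted p = 0.0336). With a library dropped, *Bag3* passed in 8 of 8 fits, *Hspd1* in 2, those without TNFR2+ replicate 1 or TNFR2- replicate 3, and *Hspa1b* in 3, those without TNFR2+ replicate 1 or TNFR2- replicate 2 or 3 (adjusted p up to 0.118). Without an intensity trend *Hspd1* (adjusted p = 0.107) and *Hspa1b* (0.0676) were lost, and under equal library sums *Hspa1b* was lost (0.0593) and the median of the list was 0.02. How reads were split between *Hspa1b* and *Hspa1a* is uncertain. The part of handling in the difference of *Fos*, *Jun* and *Jund* was not tested.

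Markers of other cells were below *Fos* and *Jun* in every library, though some were at the level of *Atf3* and *Mafg*. The 5 myeloid markers in the table, of 10 listed, summed to 35.1 to 75.5 normalized counts in TNFR2+ and 49.4 to 128 in TNFR2- Tregs. *Fos* was at 3699 or more in all 8 libraries. Of the myeloid markers, *Cd68* ran from 22.3 to 67.5 and from 19.0 to 62.5, and *Itgam* from 2.92 to 8.8 and from 10.6 to 21.2. *Fcgr3* reached 5.08 and 49.5 at most, *Csf1r* 0 and 9.19, and *S100a9* 9.84 and 0. The 8 of 10 B cell markers summed to 413 to 524 and 206 to 482, of which *Cd79a* was at most 6.1. *Cd22* made up most of that sum in TNFR2+ Tregs (273 to 350), but not in every TNFR2- library (54.7 to 223). The 5 of 7 cytotoxic lymphocyte markers summed to 110 to 196 and 48.5 to 132. *Alas2*, the single erythroid marker of 7, reached 12.1 and 10.6 at most, and *Itga2b*, the single platelet marker of 5, ran from 12.2 to 221 and from 31.2 to 178. Mitochondrial genes took 9.15% to 12.1% of the sum in TNFR2+ and 10.5% to 12% in TNFR2- Tregs.

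Kinases and regulators that act on AP-1 were called at about the background rate. Of 29 tested, 1 was higher and 1 lower (6.9% called, against 7.91% of all genes), and the median was -0.14. It was 0.03 without TNFR2- replicate 1 and -0.01 under equal library sums. *Map2k3*, which activates p38, rose by 0.92 (adjusted p = 0.0145), with 869, 712, 830 and 572 normalized counts in TNFR2+ Tregs and 383, 283, 496 and 423 in TNFR2- Tregs. It was lost without TNFR2+ replicate 1 or 3 (adjusted p up to 0.0522) and without an intensity trend (0.0716). *Tsc22d3*, whose product GILZ binds and restrains AP-1, was at -0.99 (adjusted p = 0.00449, but 0.0559 without an intensity trend), with 804, 838, 1331 and 1138 against 1920, 1866, 1772 and 2509.

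Genes known as AP-1 targets were tested for 10 of the 22 listed. *Cd44*, an adhesion receptor of activated T cells, was the 1 gene that rose (1 of 10, against 4.52% of all genes called higher), and 0 fell. At an unadjusted p under 0.05 from limma, 2 were higher, *Cd44* among them, and 1 was lower. The median of the list was 0.04, or -0.15 with no filter on low values. *Cd44* had 2195, 2375, 2693 and 2420 normalized counts in TNFR2+ Tregs and 1433, 1050, 1594 and 1018 in TNFR2- Tregs, a difference of 0.95 on the log2 scale (adjusted p = 0.00266), and passed in all 8 fits that dropped a library. *Tnf* was at -0.43 (adjusted p = 0.419) and *Cd69* at -0.09 (adjusted p = 0.733).

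These directions are relative to the scaling of the deposited values. With every library set to the same sum, the median of all genes moved to 0.12 and the share of calls that were higher from 57.2% to 74.5%. *Jun*, *Fos*, *Batf*, *Maf*, *Maff* and *Bach2* kept their directions and calls under that scaling, the median of the 9 AP-1 genes was -0.28, and that of the other immediate early genes was 0.02 with 3 called lower and 4 higher.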

How the data were processed

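RNA from sorted TNFR2+ and TNFR2- Tregs was sequenced by the authors as stranded total RNA libraries. Per the labels and methods, the authors checked reads with FastQC 0.11.8, trimmed them with Trim Galore, quantified transcripts of Ensembl GRCm38 with Salmon 1.3.0, and scaled the gene counts in DESeq2 1.28 (R 4.0). The deposited table holds that normalized signal per gene, not on a log scale. The step from transcripts to genes and any filter are not given in the sources used here. Normalized counts summed to 9576920 to 10295226 per library in TNFR2+ and 10483291 to 11492762 in TNFR2- Tregs. Low values (up to 12) of single-transcript genes over 1500 bases lay within 0.1 of whole multiples of a step in 69.7% to 96.5% of cases, which gave the estimated depth. Whole reads could not be had for multi-transcript genes, so no count model was used.

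Symbols and GRCm38 coordinates came from GENCODE M21 (20008 of 20172 identifiers matched). Genes with a mean of at least 10 were compared on log2(normalized count + 1) with limma 3.58.1 (intensity trend, two-sided, R 4.3.3), with Benjamini-Hochberg adjustment over all 13990 genes and a threshold of 0.05. Fold changes on this scale understate changes of low genes. The fit was also run on simulated counts with the same dispersion for every gene, which does not bear on the choice of intensity trend. Alternatives changed the pseudocount, filter, moderation, library weights, scaling and replicate block, and left out each library. Other tools were python 3.11.15, scipy 1.17.1, blastn 2.17.0 and matplotlib 3.10.9.

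The genes named are the 10 listed, the gene of the sorting marker, genes of the other lists with an adjusted p under 0.05, *Batf*, *Maf*, *Bach2*, *Fosl1* and *Jdp2*, and the 5 genes most like *Fos*. Other genes were named after their values were seen. The members and lists were chosen with earlier results of these data known. Counting error alone is covered by the depth figures. No replicate pair agreed within counting noise, since squared differences were at least 24.5 times its variance.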

Additional observations from a re-analysis of the deposited data

Results flagged for a closer look

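In 28 groups of 4 libraries, 3 held a library whose gap to the nearest other exceeded Dixon's 95% critical value for the share of the group's range, and chance flags about 1 group in 20. *Fos* in TNFR2- Treg replicate 3 had 9078 normalized counts against 6847 to 7045 in the other 3 libraries. This library also stood apart on the second principal component, and without it the log2 fold change of *Fos* was -0.60, still past the threshold. *Mafk* in TNFR2+ Treg replicate 1 had 988.2 against 704.5 to 728.4. *Batf* in TNFR2+ Treg replicate 4 had 384.3 against 532.5 to 546.9.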

How the results depend on the processing

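Over the alternatives, *Jun*, *Batf* and *Maff* kept direction and call in all 17, *Fos* in 16 and *Jund* in 8. *Atf3*, near 0, changed sign in 4 fits that left out a library, in a range of -0.10 to 0.18. Without an intensity trend, calls over all genes numbered 283 higher and 182 lower (633 and 474 with it), the AP-1 genes 0 and 1, the bZIP partners 1 and 1, the regulators 0 and 0 (1 and 3 at an unadjusted p under 0.05), the other immediate early genes 1 and 3, and the heat shock genes 1 and 0 (3 lower at an unadjusted p). With equal library sums, 309 genes were lower in all, 4 immediate early genes were higher and 3 lower, and 0 heat shock genes were lower (3 at an unadjusted p). Library weights and equal upper quartiles each gave 2 lower heat shock genes. With 1 library left out, calls over all genes ran from 339 to 777 higher and 279 to 547 lower. They were under the full count by over 1.5 times without TNFR2+ replicate 2 (636 in all), TNFR2+ replicate 3 (693) and TNFR2- replicate 2 (711). The bZIP partners ran from 1 to 2 in each direction, the regulators from 0 to 1 higher, the immediate early genes from 1 to 4 higher (4 without TNFR2- replicate 3) and 4 to 8 lower (4 without TNFR2+ replicate 1, 2 or 3 or TNFR2- replicate 1 or 2), the heat shock genes from 1 to 2 higher and 0 to 1 lower, and the AP-1 genes from 2 to 3 lower. The cause of these shifts was not tested. For the 9 AP-1 genes, counting error came to at most 7.63% of a value, and it was not computed for the other genes.

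Over all genes tested, same-numbered libraries did not deviate together (correlations of -0.039 to 0.001). No pairing was assumed on that ground, which does not show that they came from different mice. Single genes may still share an effect of replicate number. Replicate 1 was the lowest library of both groups for *Fos*, *Fosb*, *Jun* and *Jund*. In 0 of 4 TNFR2+ libraries was the best match the same number. With the replicate block, 1183 genes were called (1107 without), 2 regulators were higher, and *Fosb* passed at -0.41 (adjusted p = 0.0434). The adjusted p values from limma also went down for *Jun* (1.62e-04), *Fos* (0.0022), *Jund* (0.00792), *Maf* (0.00224) and *Batf* (0.0029). They went up for *Maff* (0.00951) and *Bach2* (0.022). Among the immediate early genes *Ier2* was lost (adjusted p = 0.0527) while *Klf6* (-0.45, 0.0101) and *Egr2* (0.87, 0.0446) passed. Correlations without TNFR2- replicate 3 were added after seeing the data.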

Other observations

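Genes on the opposite strand of the Jun genes were low beside them. *Junos*, antisense to *Jun*, had at most 14.6 normalized counts in any library, and *Gm11175*, antisense to *Jund*, had 22.2 and 25.6 on average in TNFR2+ and TNFR2- Tregs. *Sirt7*, which overlaps *Mafg* on the same strand, had 637 and 661.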
